A study of Mus musculus with 6 samples.

Results

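Circular RNAs (circRNAs) from the host genes Ntrk3 and Kitl were followed in the nucleus accumbens (NAc) of mice after cocaine conditioned place preference (CPP), a procedure that trains animals to seek the compartment where they received the drug. The set holds 3 probes of the 14236 circRNA probes on each array, chosen by their probe names: both annotated Ntrk3 probes and the annotated Kitl probe. The comparison was between 3 cocaine CPP mice (replicates 2, 3 and 4) and 3 saline control mice (replicates 1, 5 and 6), all adult C57BL6 males (C57Bl/6J in the study's methods) with no transgene or deletion in the labels, with 1 array per mouse. RNase R, an enzyme that removes linear RNA, had been applied to every sample, to enrich circular forms; how much linear RNA was left was not measured here. In bulk NAc RNA, fewer cells of a type and less RNA per cell cannot be told apart. One Ntrk3 probe and the Kitl probe came from the authors' deposited list of circRNAs lower in cocaine CPP, so their differences between the groups are described with no test. The second Ntrk3 probe was not on that list and was tested.

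Most circRNAs form when a splice donor is joined back to an upstream acceptor, which leaves a closed loop without ends and a junction sequence that the linear transcript does not have. Circular RNAs made of intron sequence can also arise from the lariats that splicing releases, and the files do not say how the loops described here were formed. Ntrk3 encodes TrkC, the receptor tyrosine kinase for neurotrophin-3, which acts in neuronal survival, axon growth and synapse formation. Kitl encodes Kit ligand, also called stem cell factor, a membrane-bound or shed growth factor that activates the receptor tyrosine kinase Kit. Both receptor families signal through adaptors to the Ras and MAPK branch and to the PI3K and Akt branch.

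The sequences listed for the 3 circRNAs are shown because they identify each loop and let the 2 Ntrk3 loops be told apart. Each is 60 bases long, written 5′ to 3′, and capitals in the Kitl sequence mark the complement of a miRNA seed described below. The lists do not mark where in these bases the back-splice junction lies.
Ntrk3 upstream circRNA: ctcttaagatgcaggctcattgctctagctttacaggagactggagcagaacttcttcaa
Ntrk3 downstream circRNA: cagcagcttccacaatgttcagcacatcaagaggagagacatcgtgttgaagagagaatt
Kitl circRNA: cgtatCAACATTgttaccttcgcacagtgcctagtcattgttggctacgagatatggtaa

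The Ntrk3 circRNA of the deposited list (mmu_circRNA_41735, probe ASCRP4006829) spans chr7:78374229-78462942 on the minus strand and is called here the upstream circRNA. The second one (mmu_circRNA_41725, probe ASCRP4004357) spans chr7:78229487-78260414 on the same strand, further along the direction of transcription, and is called the downstream circRNA. The genome build of these coordinates is not named in the files. The 2 loops share no genomic base, since 113.8 kb lie between them, and the longest run of bases common to their listed sequences is 6. Both were annotated as intronic, a class that holds 20 of the 684 annotated probes, or 2.92%. This annotation is that of the lists and was not checked against a genome or a coding sequence, so neither loop is shown here to hold intron sequence. Beyond the printed sequences, the bases that each loop holds within its span are not known here. The upstream loop covers 88.7 kb, more than 95.5% of the annotated circRNAs, and the downstream loop covers 30.9 kb. The Kitl circRNA (mmu_circRNA_22531, probe ASCRP4006011) is exonic and spans chr10:100076735-100089271 on the plus strand, a stretch of 12.5 kb against a median of 10.4 kb for annotated circRNAs. The downstream Ntrk3 circRNA was also among the 658 probes analysed here from the study's list of circRNAs bound by HuD. HuD is a neuronal protein that binds RNA, and the other 2 circRNAs were not among those probes. The study names circNtrk3 as a HuD target that cocaine CPP altered. Here the Ntrk3 probe of the deposited lower list and the HuD-bound one are different circRNAs of that gene.

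The authors' deposited table names 5 miRNAs with predicted sites on the upstream Ntrk3 circRNA and 5 on the Kitl circRNA, 10 in all, by a method that the table does not give. No miRNA was measured in these samples. Mature sequences of 6 of the 10 were found in the RefSeq table of GRCm38.p6, and their seeds (bases 2 to 8, in capitals) were all different. The first shown is the one whose seed has its complement in a printed sequence, and the others are those of the 6 that the table names for more than 1 of its 29 circRNAs.
mmu-miR-409-3p: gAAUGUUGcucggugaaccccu
mmu-miR-6344: gUUUUCCUacuguuucccuuuu
mmu-miR-5110: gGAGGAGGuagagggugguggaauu
The complement of the miR-409-3p seed, CAACATT, begins at base 6 of the Kitl sequence as listed. It was found in 5 of the 684 annotated sequences on the listed strand, or 0.731%, and in 9, or 1.32%, on either strand, and in neither Ntrk3 sequence. For the other 5 miRNAs the complement of bases 2 to 7 was not in these 60 bases of its circRNA, and the rest of each loop was not searched. The sites named for the Ntrk3 circRNA include those of miR-5110, and those named for the Kitl circRNA include miR-6344, which the table lists for 3 of its 29 circRNAs.

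The upstream Ntrk3 circRNA was lower on every cocaine CPP array than on any control array. Its relative signal, which is log2 of the background-subtracted intensity minus the 75th percentile of all circRNA probes on the same array, was -4.43, -3.23 and -3.31 in cocaine CPP replicates 2, 3 and 4. In control replicates 1, 5 and 6 it was -2.51, -2.64 and -2.81. The control values lay close together, whereas cocaine CPP replicate 2 lay well below the rest of its group. The group means were -3.66 ± 0.67 (SD, n = 3) and -2.65 ± 0.15 (SD, n = 3). The log2 difference of cocaine CPP minus control was -1.004 with an SE of 0.34, which is 2.01-fold lower, and without cocaine CPP replicate 2 it was -0.62. Among the 12956 probes tested this was the 20th lowest difference, a rank that follows from how the probe was chosen.

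The Kitl circRNA was also lower on every cocaine CPP array than on any control array, with a narrower spread. Its relative signal was -2.50, -2.62 and -2.10 in cocaine CPP replicates 2, 3 and 4, and -1.59, -1.38 and -1.70 in control replicates 1, 5 and 6. The highest cocaine CPP value, that of replicate 4, lay 0.40 below the lowest control value, that of replicate 6. The cocaine CPP mean was -2.41 ± 0.27 (SD, n = 3) and the control mean -1.56 ± 0.16 (SD, n = 3), a log2 difference of -0.85 with an SE of 0.23, or 1.80-fold lower. The spread within groups, pooled over both, was 0.22 for the Kitl probe, smaller than that of 75.8% of the tested probes, and 0.48 for the upstream Ntrk3 probe, larger than that of 77.3% of them. The groups of 2 of the 3 circRNAs thus did not overlap, where 2.44% of all tested probes had every cocaine CPP array below every control array. Both had been picked from the deposited list of this same contrast, so nothing is read from that count.

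The downstream Ntrk3 circRNA, which is not on the deposited lists of this contrast, did not separate the groups. Like the other 2, it was chosen with earlier results of these data known. Its relative signal was -1.62, -0.98 and -1.31 in cocaine CPP replicates 2, 3 and 4, and -1.57, -1.87 and -1.05 in control replicates 1, 5 and 6. The groups overlapped along most of their range, and the highest value of each group came from its dimmest array, cocaine CPP replicate 3 and control replicate 6. The means were -1.31 ± 0.32 (SD, n = 3) and -1.49 ± 0.41 (SD, n = 3). The log2 difference was 0.19 with a 95% confidence interval from -0.46 to 0.84, and limma gave an adjusted p of 0.9996. The interval includes changes of either sign. With slide row as a covariate the difference was -0.13.

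**Figure D1:**
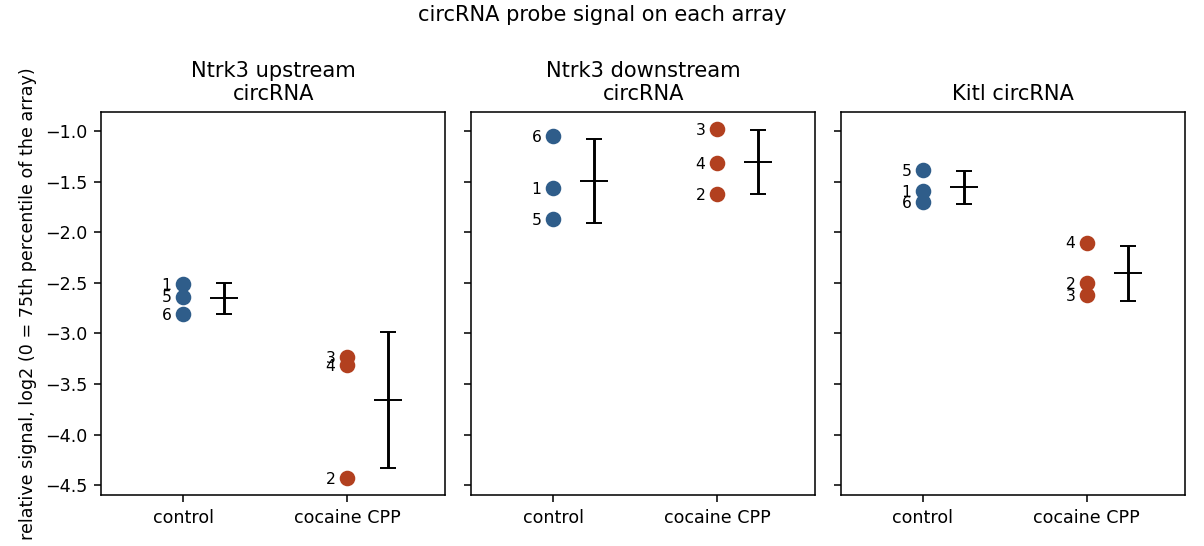
Relative signal (log2, 0 at the 75th percentile of circRNA probes on the array) of the 3 circRNA probes on each of the 6 arrays; points are arrays with their replicate numbers, and black bars are the mean and SD of 3 arrays. The control arrays lie above all cocaine CPP arrays for the upstream Ntrk3 and the Kitl circRNA, and the groups overlap for the downstream Ntrk3 circRNA. Levels of different probes are not comparable.

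The 2 Ntrk3 circRNAs were then set against each other within each array, since the scaling of an array cancels in the difference between 2 of its own spots. The upstream minus downstream log2 signal was -2.81, -2.25 and -2.00 in cocaine CPP replicates 2, 3 and 4, and -0.94, -0.77 and -1.77 in control replicates 1, 5 and 6. All 3 cocaine CPP arrays were below all 3 controls, with 0.23 between the nearest arrays, cocaine CPP replicate 4 and control replicate 6. The cocaine CPP arrays had a mean contrast of -2.35 ± 0.41 (SD, n = 3) and the controls one of -1.16 ± 0.53 (SD, n = 3), and the difference between these means was -1.19. The upstream probe had been chosen for its low values in cocaine CPP, so this contrast was described and not tested. The absolute value of the contrast on an array depends on both probes and is not a ratio of RNA amounts.

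The upstream Ntrk3 spot was dim, and the groups of the upstream Ntrk3 and Kitl circRNAs separated once the arrays had been scaled. Before scaling, the background-subtracted intensity of the upstream Ntrk3 spot was 13.8, 11.6 and 25.0 in cocaine CPP replicates 2, 3 and 4, and 45.1, 51.1 and 24.5 in control replicates 1, 5 and 6. On this unscaled reading the groups overlapped, because control replicate 6 was no brighter than cocaine CPP replicate 4. The Kitl spot read 52.3, 17.8 and 58.0 in cocaine CPP and 85.2, 121.6 and 53.0 in controls, and control replicate 6 again fell within the cocaine CPP range. The 75th percentile of log2 signal was 7.43 on the array of control replicate 6 and 6.77 on that of cocaine CPP replicate 3, against 7.96 to 8.31 on the other 4 arrays. The downstream Ntrk3 spot read 96.3, 55.3 and 100.1 in cocaine CPP and 86.6, 87.0 and 83.2 in controls, and cocaine CPP replicate 3 was the single low array.

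All 3 circRNAs were called well above background on all 6 arrays, and none of their spots carried an outlier flag. The median intensity of the upstream Ntrk3 spot was nevertheless only 1.38 to 2.12 times its local background on the cocaine CPP arrays, and 2.04 to 3.16 times on the control arrays. The Kitl spot lay at 2.16 to 3.74 times background in cocaine CPP and 3.00 to 5.88 times in controls, and the downstream Ntrk3 spot at 3.04 to 4.90 and 3.76 to 4.07 times. The scanner software's own error for the upstream Ntrk3 spot was 10.4% to 18.5% of the signal, largest on the array of cocaine CPP replicate 3. Each value rests on 1 spot, and this error does not cover the spread between mice.

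**Figure D2:**
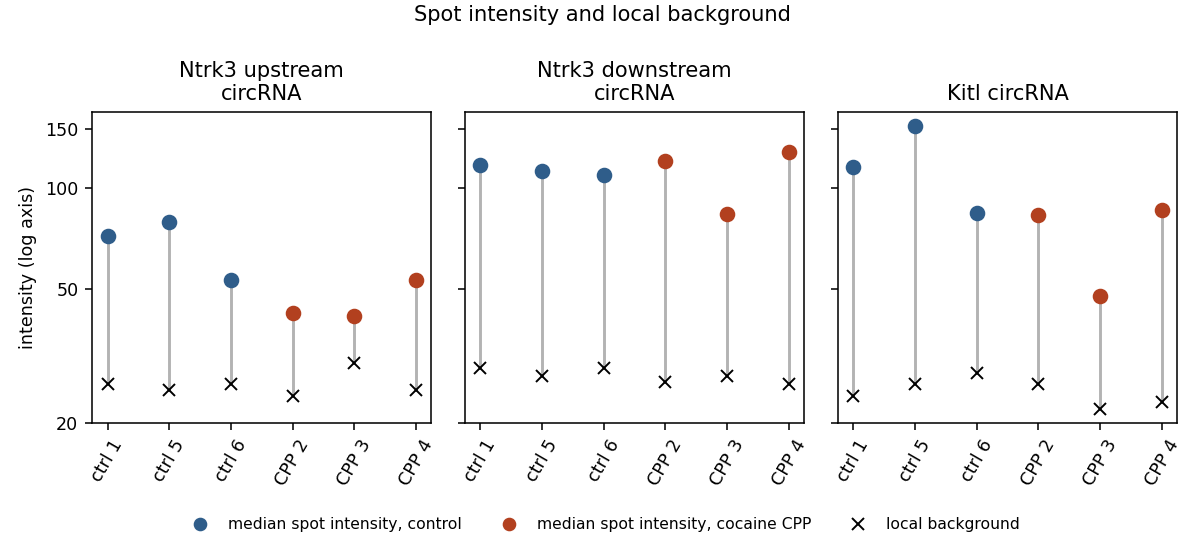
Median spot intensity (circles) and local background (crosses) of the 3 probes on each array, on a log axis, with controls in blue and cocaine CPP in red; each point is 1 spot. The upstream Ntrk3 spot stands 1.38 to 3.16 times above its background, and its distance from background is smallest in cocaine CPP replicate 3.

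The treatment of background changed the size of the differences. When log2 was taken of the median intensity with no background subtraction, after quantile normalization, the log2 difference was -0.41 for the upstream Ntrk3 and -0.56 for the Kitl circRNA, and neither had overlapping groups. With the normexp correction of the median intensity, which models the background and adds an offset of 50 to every spot, the log2 differences were -0.23 and -0.33, and the groups of both circRNAs overlapped. The Ntrk3 contrast differed by -0.54 with no background subtraction and by -0.38 with normexp. Its groups did not overlap in either, but their nearest arrays were only 0.08 and 0.03 apart, against 0.23 with the processed signal. Quantile normalization of the processed signal, the array median and array weights gave -0.98, -0.99 and -1.02 for the upstream Ntrk3 circRNA and -0.83, -0.84 and -0.88 for the Kitl circRNA.

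The position of the arrays on the slide could be separated from the groups in part. Slide row was taken as the first number of the barcode in each array's scanner output, a reading that was not checked. By it, row 1 held all 3 control arrays together with that of cocaine CPP replicate 2, and row 2 held the remaining cocaine CPP arrays. With slide row as a covariate, which is the same as comparing cocaine CPP replicate 2 alone with the controls within row 1, the log2 difference was -1.77 for the upstream Ntrk3 circRNA and -0.94 for the Kitl circRNA. Row 2 held no control array, so it gives no value of its own.

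**Figure D3:**
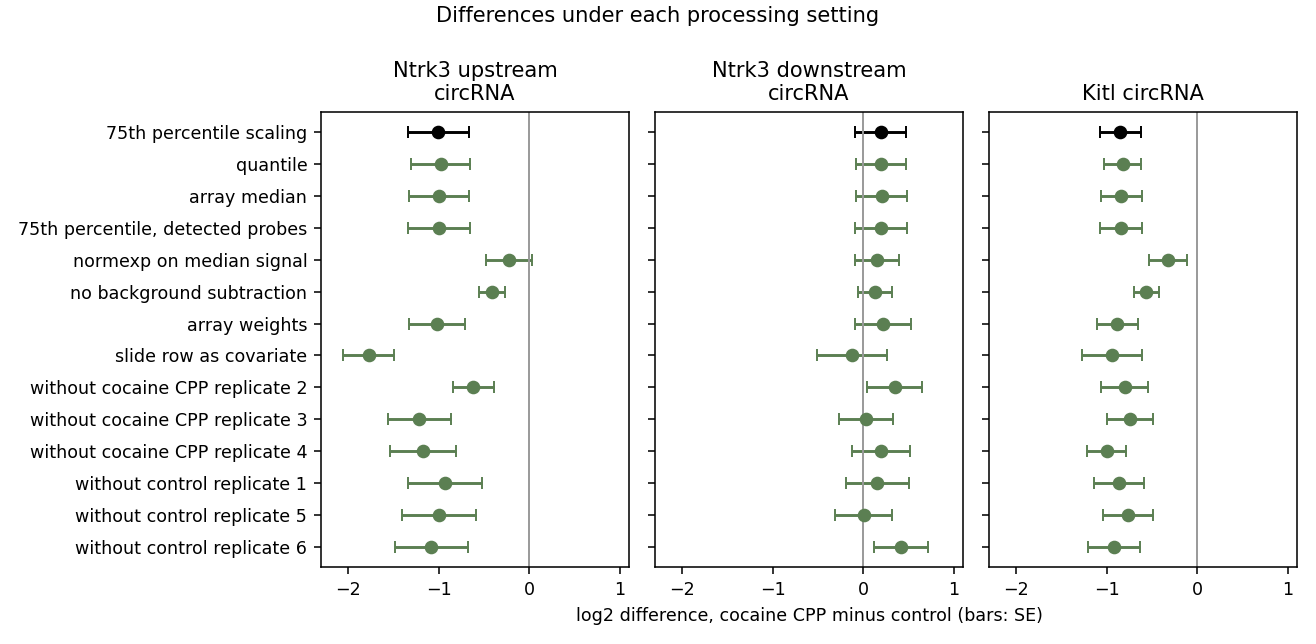
Log2 difference of cocaine CPP minus control for the 3 circRNAs under each processing setting and with each array left out; points are differences of group means and bars are SE, with 75th percentile scaling of the processed signal in black. The upstream Ntrk3 and Kitl circRNAs stay below 0 in every setting shown and come nearest to 0 with normexp (-0.23 and -0.33), and the downstream Ntrk3 circRNA crosses 0 with slide row as a covariate.

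Other circRNAs of growth factor signalling genes were examined next, from a list of 25 host genes in receptor tyrosine kinase and neurotrophin signalling. Apart from the 3 probes above, 29 probes from 23 of these genes were on the array with an annotation, and all 29 were well above background on all 6 arrays. Of these, 23 had a lower and 6 a higher mean in cocaine CPP, with a median log2 difference of -0.11. Leaving out 1 array gave 18 to 26 lower and moved the median to -0.07 without cocaine CPP replicate 3 or control replicate 1 and to -0.20 without control replicate 6. Over all 12956 tested probes, 54.1% had a lower mean and the median difference was -0.02. With normexp the list split into 17 lower and 12 higher, where 33.9% of all tested probes had a lower mean, and the list's median was -0.05. No probe of the list passed adjustment over all probes in limma or in the methods' t-test. At an unadjusted p under 0.05 limma called 1 of the 29, where it called 0.78% of all probes, and the methods' t-test also called 1, where it called 1.45% of all. The called probe comes from the deposited list of this same contrast. Of the other 28 probes, all known here through the HuD-bound list, limma called 0 and the groups of 1 did not overlap. Over all 12956 probes 0 passed adjustment in limma. The groups did not overlap for 2 of the 29, the probes of Rps6ka3 and of Pdpk1 (ASCRP4004438, named after its values were seen), where 3.62% of all probes did not overlap.

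The 1 called probe was that of Rps6ka3 (ASCRP4012948), which encodes RSK2, a kinase that ERK activates and that phosphorylates CREB. Its relative log2 signal was -0.20, -0.06 and -0.62 in cocaine CPP replicates 2, 3 and 4, and 0.37, 0.40 and 0.15 in control replicates 1, 5 and 6. The log2 difference was -0.60 with an SE of 0.23 and an adjusted p of 0.9996 in limma. This probe is on the deposited list of the same contrast, so its call is not independent of how that list was made. It was no longer called without cocaine CPP replicate 4, control replicate 1 or control replicate 5, with differences of -0.44, -0.57 and -0.56. Without cocaine CPP replicate 2 the Creb1 probe was called as well, and without cocaine CPP replicate 4 the Shc3 probe was called in place of Rps6ka3. With slide row as a covariate the single called probe was that of Pik3r1. Its relative log2 signal was -4.23 in cocaine CPP replicate 2, below the controls at -3.50 to -3.30. Cocaine CPP replicates 3 and 4 lay above all controls, at -3.05 and -2.77, and without the covariate the log2 difference was 0.06.

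Among ligands and receptors, no probe of the list separated the groups. The sister receptor of TrkC, TrkB, which binds BDNF and is encoded by Ntrk2, gave a circRNA (ASCRP4009234) at 1.25, 0.98 and 0.84 in cocaine CPP and 0.97, 1.09 and 0.91 in controls, in relative log2 signal. These values interleave, and the log2 difference was 0.03 with a 95% confidence interval from -0.44 to 0.51. The circRNA of Ptn, which encodes the secreted growth factor pleiotrophin, had a log2 difference of 0.15 with an SE of 0.31. That of Epha7, an ephrin receptor that guides axons and shapes dendrites, had a difference of -0.27 with an SE of 0.22. That of Sort1, which encodes sortilin, a sorting receptor that binds proneurotrophins, had a difference of -0.19 with an SE of 0.33.

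Downstream of the receptors, the probe with the largest difference in each role was as follows. The adaptor Shc3, which links activated Trk receptors to Ras, gave a circRNA with a log2 difference of -0.43 and an SE of 0.34. The cytoplasmic tyrosine kinase Fyn gave one (ASCRP4008201) of 0.07 with an SE of 0.20. The other Fyn probe (ASCRP4014045) had a difference of the opposite sign, -0.07 with an SE of 0.26. The circRNA of Spred2, an inhibitor of the Ras and Raf step, had a difference of -0.21 with an SE of 0.24. In the PI3K branch the largest was a Gsk3b circRNA (ASCRP4011746) at -0.29 with an SE of 0.25, from the kinase that Akt inhibits. Tiam1, an exchange factor that activates Rac and remodels dendritic spines, had a circRNA (ASCRP4005521) at -0.26 with an SE of 0.25. The Creb1 circRNA, from the gene of the transcription factor CREB, had a difference of 0.36 with an SE of 0.40, and its cocaine CPP arrays ranged from -2.36 to -0.73. None of these probes had an adjusted p in limma below 0.9996.

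**Figure D4:**
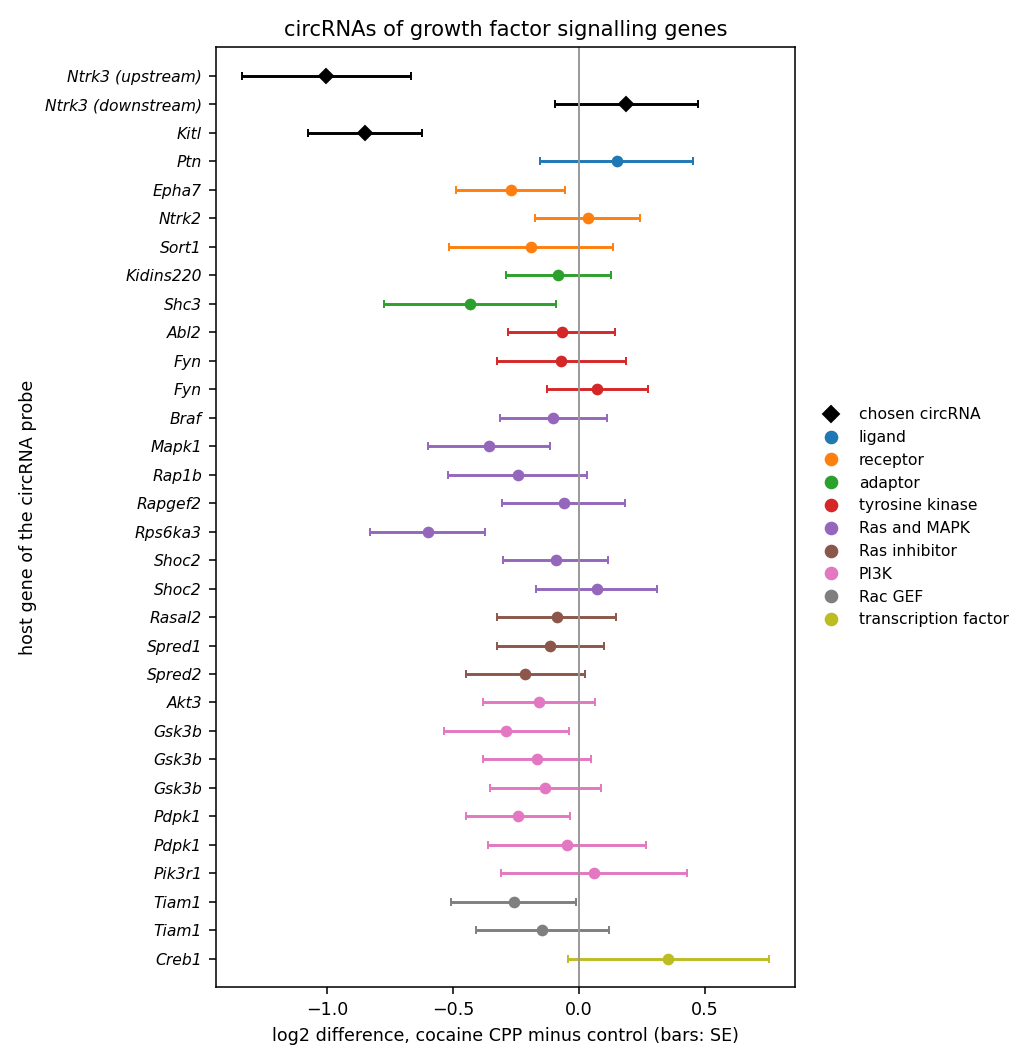
Log2 difference of cocaine CPP minus control (points, with SE bars, from 3 arrays per group) for the 3 chosen circRNAs (black diamonds) and 29 other circRNA probes of growth factor signalling host genes, coloured by role. The list spans -0.60 (Rps6ka3) to 0.36 (Creb1), and the upstream Ntrk3 and Kitl circRNAs, chosen for low values, lie outside that span at -1.004 and -0.85.

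The probes whose pattern over the 6 arrays was most like each circRNA were sought among 651 annotated probes. For the upstream Ntrk3 circRNA they were 2 probes of Arpp21, a striatum-enriched phosphoprotein gene, with Pearson's r of 0.97 and 0.95, and 1 of Hlf with 0.96. The log2 difference of cocaine CPP minus control was -0.58 with an SE of 0.23 and -0.53 with an SE of 0.30 for the Arpp21 probes, and -0.23 with an SE of 0.21 for that of Hlf. The part of a striatal marker gene such as Arpp21 in the upstream Ntrk3 difference was not tested. For the Kitl circRNA they were those of Tomm70a, A830018L16Rik and Arhgap10, with r of 0.93, 0.93 and 0.92, all from the deposited list of lower circRNAs, as the Kitl probe is, so that all 4 share the contrast by which they were chosen. For the downstream Ntrk3 circRNA they were those of Ncoa7, Kif5c and Ubp1, with r of 0.96, 0.93 and 0.93. Among all 10980 probes compared, annotated or not, 181 had an r at least as high as the lowest of the 3 given for the downstream Ntrk3 circRNA, against 10 for the upstream one and 21 for Kitl. Over the same 6 arrays the upstream Ntrk3 and Kitl circRNAs correlated at 0.78, and the 2 Ntrk3 circRNAs at 0.003. The points share array, brightness and scaling, and the first of these correlations includes the group difference by which both probes were chosen.

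The tissue label was checked with circRNAs of striatal host genes, of which all 14 probes from 8 genes were well above background on all 6 arrays. Both probes of astrocyte genes were so too, and 1 of 2 probes of cortical projection neuron genes. Since 77.3% of all circRNA probes were as well, these counts say little about the tissue. Summed over its probes, the striatal list had a relative log2 signal of 4.32 to 5.79 in cocaine CPP and 4.94 to 5.16 in controls, the astrocyte list 3.93 to 4.24 and 4.14 to 4.40, and the cortical list -1.74 to -0.74 and -1.59 to -1.18. The ranges overlap for all 3 lists, and their part in the differences above was not tested. On the dimmest array, that of cocaine CPP replicate 3, 77.8% of the probes stood well above background, and on the other arrays 87.8% to 93.2% did. Without it the differences were -1.22 for the upstream Ntrk3, -0.74 for the Kitl and 0.03 for the downstream Ntrk3 circRNA.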

How the data were processed

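RNA from 6 mice was hybridised to 1-colour circRNA arrays. Per the labels it was treated with RNase R and labelled with Cy3 by random priming. The authors deposited scanner output from Feature Extraction 11.0.1.1 with 15712 spots per array, each with a median intensity, a local background and a processed intensity from which background had been subtracted. They also deposited 1 list for each direction of change between the groups, whose fold changes and p-values were not used. From these lists and the HuD-bound list, the sequences, host genes and coordinates (txStart and txEnd, other deposited values) were taken, with starts raised by 1. The 24 per-sample columns of the lists were not used. An aligner or genome build is not given in the sources used here.

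Processed intensities were taken to log2, minus the 75th percentile of circRNA probes on the array, which removes any change common to all probes. The 19 flagged values were left out. The 12956 probes well above background on at least 3 arrays were fitted in R 4.3.3 with limma 3.58.1 (lmFit, then eBayes), and two-sided p-values were adjusted over all of them by Benjamini-Hochberg, with 0.05 as the threshold. SEs are limma's moderated ones. The fit was also run on simulated data with independent noise for each probe. That simulation lacks the effects that probes share on a real array, so nothing is concluded from it here. The number of arrays and the signal over background limit the precision.

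The circRNAs, the gene list and the tests were chosen with earlier results of these data known. Named from the list were every ligand and receptor, every probe under 0.05 unadjusted, and the largest difference in each other role. Likeness was the 3 highest correlations per circRNA. Alternatives were other scalings, background corrections, filters, array weights, eBayes with trend, slide row, the methods' t-test, 1 probe per gene and leaving out each array. Figures were drawn with matplotlib 3.10.9.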

Additional observations from a re-analysis of the deposited data

How the results depend on the processing

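No paired analysis was possible because cocaine CPP and control arrays carry different replicate numbers. The differences of the upstream Ntrk3 and Kitl circRNAs and the Ntrk3 contrast kept their direction under every alternative run. The upstream Ntrk3 difference of -1.004 moved by more than the spread between replicates to -0.23 with normexp, -0.41 with no background subtraction and -1.77 with slide row as a covariate. The Kitl difference of -0.85 moved to -0.33 and -0.56 with normexp and with no background subtraction. The Ntrk3 contrast of -1.19 moved to -0.38 and -0.54 in that order. The downstream Ntrk3 difference of 0.19 turned to -0.13 with slide row as a covariate and stayed above 0 elsewhere. The cause of the moves with normexp and with no background subtraction was not tested. With slide row as a covariate the difference is by construction that of cocaine CPP replicate 2 against the controls. Leaving out each array in turn gave -1.22 to -0.62 for the upstream Ntrk3 circRNA, -1.002 to -0.74 for Kitl, 0.002 to 0.41 for the downstream Ntrk3 circRNA, lowest without control replicate 5 and highest without control replicate 6, and -1.50 to -0.97 for the contrast. The count of listed probes called unadjusted was 1 in every other setting and 0 to 2 with an array left out; adjusted it was 0 throughout, and the lowest adjusted p in the list ran from 0.913 to 0.99999. Over all probes the 101 unadjusted calls became 14 with normexp, 56 with eBayes with trend, 277 with slide row, 188 with no filter and also with the methods' t-test, 50 among probes well above background on all arrays, and 46 to 525 with an array left out, highest without cocaine CPP replicate 2. The share of these calls that were lower was 61.4%, against 71.4% with normexp, 76.1% with no background subtraction, 45.5% with slide row, 34.6% with no filter and 31.3% to 82.8% with an array left out, lowest without cocaine CPP replicate 3 and highest without cocaine CPP replicate 4. Adjusted, slide row gave 1 call and the other settings 0. The upstream Ntrk3 spot was dim, at 1.38 to 3.16 times its local background.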
